A study of Mus musculus with 2 samples.

Results

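The forkhead transcription factor family was examined in mouse embryonic stem (ES) cells with an Ago1 knockout. Members were the protein-coding genes of the count table whose GENCODE symbol is Fox, a letter and a digit, which gave 42 genes of 21976 protein-coding genes and 55421 table entries. They fell into 17 subfamilies, named by the letter, on 15 chromosomes. The study holds 1 group, Ago1 KO, in 2 libraries called KO1 and KO2. Both are E14 ES cells with an AGO1 knockout on the 129/Ola background, with blastocyst given as the tissue, grown on gelatin in medium with serum and leukaemia inhibitory factor. Whether KO1 and KO2 came from separate clones or cultures is not labelled, and their spread may therefore be technical. Without a control library in use, the data give levels in knockout cells and no effect of the knockout.

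Forkhead factors share a winged-helix domain of the same name that binds DNA, and several act as pioneer factors that bind their sites in closed chromatin. Some subfamilies are expressed in most cells: FOXO factors are held in the cytoplasm by AKT when insulin and growth factor signalling is on, FOXM1 drives genes of mitosis, and FOXK factors bring histone-modifying complexes to DNA. Others are known as regulators of particular lineages, such as FOXA in endoderm, FOXC and FOXF in mesoderm and FOXJ1 in cells with motile cilia. In ES cells Foxd3 is known for its part in keeping the pluripotent state.

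Promoter sequence was available for 28 of the 42 members, as the RefSeq window (GRCm38.p6) from 250 bases before to 50 after the annotated start. Of these, 13 were detected and 15 were not, where detected means at least 1 count per 1000000 counts (CPM) in both libraries. The 5 windows below are shown because they place detected and undetected members beside each other. Foxd3 and Foxd2 belong to 1 subfamily and both have 1 exon, yet only the first was detected. Foxr1 and Foxr2 were both detected at low levels, and Foxp4 had the highest mean level. Each is written 5′ to 3′ on the strand of the gene in lower case, with every CG dinucleotide in capitals.
Foxd3: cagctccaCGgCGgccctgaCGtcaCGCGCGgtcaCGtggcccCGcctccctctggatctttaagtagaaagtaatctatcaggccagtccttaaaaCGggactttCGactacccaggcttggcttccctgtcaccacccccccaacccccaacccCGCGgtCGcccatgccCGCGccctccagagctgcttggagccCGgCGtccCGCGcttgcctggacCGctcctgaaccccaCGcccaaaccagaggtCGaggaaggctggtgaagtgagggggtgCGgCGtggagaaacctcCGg
Foxd2: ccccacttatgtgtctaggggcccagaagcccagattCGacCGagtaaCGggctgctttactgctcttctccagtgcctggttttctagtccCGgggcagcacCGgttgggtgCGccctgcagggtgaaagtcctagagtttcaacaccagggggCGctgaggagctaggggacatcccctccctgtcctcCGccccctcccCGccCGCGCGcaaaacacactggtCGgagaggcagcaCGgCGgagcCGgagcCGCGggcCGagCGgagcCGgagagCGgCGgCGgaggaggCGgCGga
Foxr1: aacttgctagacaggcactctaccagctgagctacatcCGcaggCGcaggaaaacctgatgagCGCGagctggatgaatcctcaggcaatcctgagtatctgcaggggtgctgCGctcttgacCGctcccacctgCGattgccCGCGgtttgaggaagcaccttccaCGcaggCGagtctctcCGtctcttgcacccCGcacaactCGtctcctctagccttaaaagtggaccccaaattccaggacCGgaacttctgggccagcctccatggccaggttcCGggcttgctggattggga
Foxr2: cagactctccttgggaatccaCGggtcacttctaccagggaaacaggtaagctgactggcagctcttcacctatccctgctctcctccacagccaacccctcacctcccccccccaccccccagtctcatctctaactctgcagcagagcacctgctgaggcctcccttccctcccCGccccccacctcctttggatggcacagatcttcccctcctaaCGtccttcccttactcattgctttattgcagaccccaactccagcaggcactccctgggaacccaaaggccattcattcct
Foxp4: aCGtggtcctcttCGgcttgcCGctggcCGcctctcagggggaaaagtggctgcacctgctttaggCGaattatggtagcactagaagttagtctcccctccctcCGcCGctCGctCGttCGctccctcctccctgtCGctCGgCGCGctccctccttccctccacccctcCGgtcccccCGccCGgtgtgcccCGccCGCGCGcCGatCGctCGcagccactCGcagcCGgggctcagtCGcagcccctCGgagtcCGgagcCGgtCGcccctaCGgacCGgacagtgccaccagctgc
The windows lie at chr4:99656049-99656348 (Foxd3, plus strand), chr4:114908849-114909148 (Foxd2, minus), chr9:44440819-44441118 (Foxr1, minus), chrX:153118538-153118837 (Foxr2, plus) and chr17:47924583-47924882 (Foxp4, minus).

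The numbers of CG dinucleotides overlapped between detected and undetected members. The Foxd3 window held 25 of them and that of Foxd2, a gene with 1 read in all, held 26. Foxp4 had 33, Foxr1 16 and Foxr2 3. Over all 28 windows the median was 22, beside 7 for 27025 genes of the RefSeq table. Detected members had a median of 31 and a range from 3 to 59, and members below the threshold a median of 12 and a range from 5 to 32. At least 15 CG dinucleotides stood in 10 of 13 detected and 7 of 15 undetected members, and in 35.2% of all genes. Foxc1, with 2 reads in KO1 and 0 in KO2, held 32. The forkhead core motif TGTTTAC, searched on both strands, was found in 1 of the 28 windows, that of Foxa1, and in 3.52% of all windows of the same length.

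Detection split the family, with 18 of 42 members detected, against 55.3% of all protein-coding genes. At least 1 read in each library was present for 33 members, against 75.3%. In bulk RNA, fewer cells with a transcript and less of it per cell cannot be told apart. These 18 held 98.5% of the summed forkhead level in KO1 and 97.9% in KO2. The levels are given as transcripts per 1000000 (TPM), which divides each count by the exonic length so that genes can be compared. Summed over the 42 genes the level was 418 TPM in KO1 and 474 TPM in KO2, or 446 ± 40.0 TPM (SD, n = 2). The 12 highest members took 92.3% and 91.5% of it. Depth was 57048330 counts in KO1 and 54408708 in KO2, so that 3 counts, about the one-sided 95% limit for 0 observed reads, stand for 0.0528 and 0.0549 CPM. Intervals and floors cover the counting error of reads and no other variation between libraries. PCR copies are not separate molecules, so even this error may be understated.

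**Figure D1:**
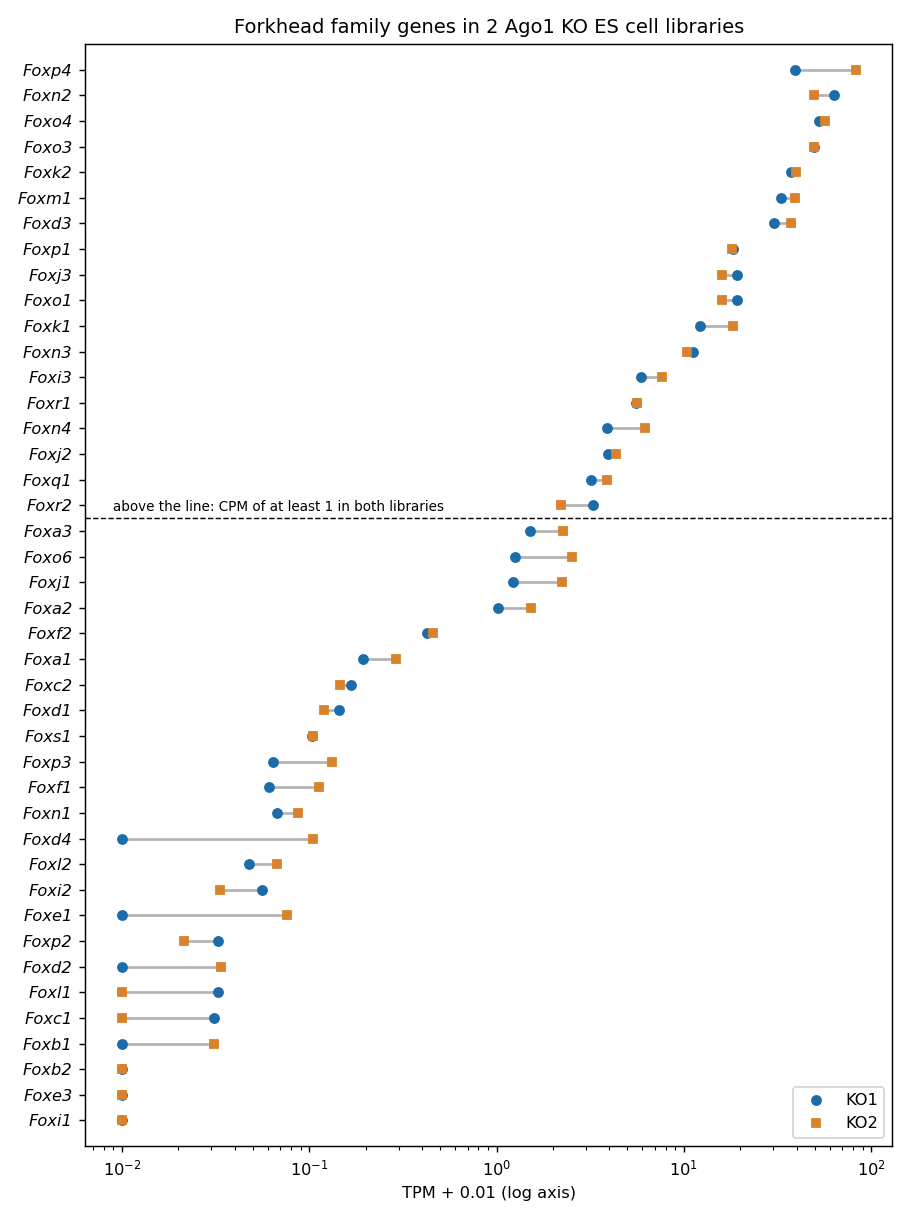
Level of each of the 42 forkhead genes in KO1 (circles) and KO2 (squares), as TPM + 0.01 on a log axis, ordered by the mean. The 18 genes above the dashed line run from Foxp4 at 61.1 TPM down to Foxr2 at 2.73 TPM, 4 genes follow between 1.27 and 1.88 TPM, and the other 20 are at 0.431 TPM or lower.

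The knockout libraries carried the markers of ES cells, with 8 of 8 listed genes detected at a median of 1112 TPM. Primitive endoderm markers were detected in 7 of 7 cases, with summed levels of 99.2 TPM in KO1 and 112 TPM in KO2, neural markers in 3 of 6, trophoblast markers in 2 of 6, and blood markers in 1 of 4, Cd3e. Of 8 fibroblast markers Thy1 and Fbln2 were detected, and no read was assigned to Lum or Postn. None of 5 skeletal muscle markers was detected in both libraries, and all 5 passed 1 CPM in KO1 only. Their summed levels were 13.9 TPM in KO1 and 1.68 TPM in KO2, and all 5 were lower in KO2 by more than 2-fold with the whole counting interval, beside 0.0768% of all genes. The targeted gene was still read, Ago1 having 1497 counts in KO1 against 452 in KO2, or 11.3 and 3.46 TPM. Its log2 ratio of KO2 over KO1 was -1.67, and -1.73 after the GC correction described below. A sum over the gene hides which exons gave these reads.

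FOXO was the subfamily with the highest summed level, 123 TPM in KO1 and 125 TPM in KO2, which was 29.4% and 26.4% of the family. FOXP followed at 57.7 and 101 TPM, FOXN at 78.4 and 66.1 TPM, and FOXK at 49.6 and 58.0 TPM. The order of FOXP and FOXN thus differed between the libraries, whereas FOXO was first in both with the exonic length. Levels, ranks, shares and detection were not corrected for GC content, which is taken up below for the ratio of the libraries. Foxp4 and Foxn2, the highest FOXP and FOXN genes, had a GC content of 63.4% and 41.2%. Whether the switch of order goes back to GC content was not tested. With the longest transcript the mean share was 24.4% for FOXO and 19.7% for FOXP. In KO2 FOXO was then no longer ahead of FOXP. FOXM, with Foxm1 as its only member, was at 36.1 ± 4.36 TPM (SD, n = 2), FOXD at 34.0 ± 5.27 TPM and FOXJ at 23.5 ± 1.36 TPM. The order of the last 3 depends on the length used as well. With the longest transcript FOXJ held 8.41% of the family in place of 5.30%, beside 8.05% for FOXM and 6.14% for FOXD. Without length scaling FOXD, whose reads came from a short gene, held 2.92% in place of 7.61%. In 10 of the 17 subfamilies a member was detected. The other 7, FOXA, FOXB, FOXC, FOXE, FOXF, FOXL and FOXS, hold 14 members with 131 counts in KO1 and 183 in KO2 between them.

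**Figure D2:**
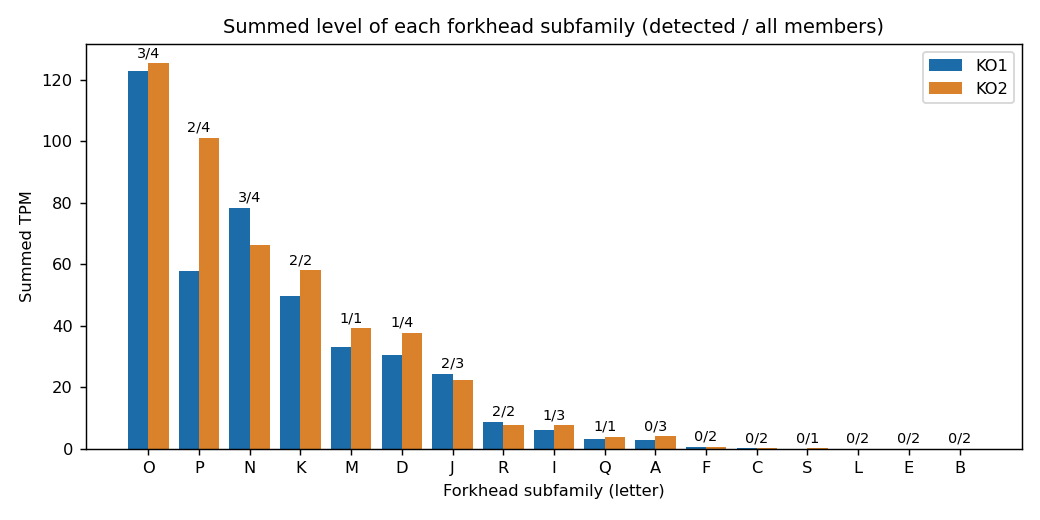
Summed TPM of each forkhead subfamily in KO1 and KO2, with the number of detected and of all members over the bars. FOXO stands highest in both libraries at 123 and 125 TPM, FOXP differs most in TPM between them at 57.7 and 101 TPM, and 7 subfamilies show 0 detected members.

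Within FOXO, the growth-factor-controlled branch, Foxo4 and Foxo3 led and Foxo1 was lower. Foxo4 (ENSMUSG00000042903, chromosome X from 101254528 to 101260873) had 2982 counts in KO1 and 3198 in KO2, or 52.6 and 57.0 TPM. Foxo3 (ENSMUSG00000048756, chromosome 10, 42181841 to 42276755) had 6128 and 6068 counts, or 49.7 and 49.8 TPM. Read numbers of Foxo3 were about as high in 1 library as in the other, and its lower TPM beside Foxo4 comes with an exonic length of 7571 bases against 3485. The ranges of these 2 genes over the libraries did not overlap, although their means differed by 1.10-fold only. Foxo1 (chromosome 3, 52268336 to 52353221), which has been tied to pluripotency in ES cells, had 2717 and 2224 counts, or 19.3 and 15.9 TPM. Foxo6, a member known from the brain, was below the threshold with 53 and 106 counts (0.933 and 1.94 CPM). Shares of the FOXO level were 44.2% ± 1.91 for Foxo4, 40.1% ± 0.525 for Foxo3, 14.2% ± 2.09 for Foxo1 and 1.51% ± 0.705 for Foxo6 (SD, n = 2).

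The genes listed around FOXO were expressed nearly throughout. Of 27 upstream regulators 26 were detected, led by the 14-3-3 genes Ywhae at 1669 TPM and Ywhaz at 638 TPM, whose proteins hold phosphorylated FOXO in the cytoplasm. The lowest were the insulin receptor gene Insr at 4.35 TPM and its adaptor gene Irs1 at 0.209 TPM. Among 20 listed FOXO target genes 18 were detected. Txnip, an inhibitor of thioredoxin, was highest at 278 TPM, followed by Klf2 at 177 TPM, and Igfbp1 and Pck1, genes of liver metabolism, had at most 3 counts in a library. The list medians were 33.3 TPM for regulators and 15.1 TPM for targets. All protein-coding genes had a median of 2.39 TPM and the detected ones 20.1 TPM, above that of the targets. The 2 lists share genes, Insr among them. These counts of detected genes and those of the lists below stand beside 55.3% of all protein-coding genes. Transcript levels do not show whether FOXO proteins were in the nucleus.

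FOXP was carried by Foxp4 and Foxp1, repressors that pair with each other through a leucine zipper. Foxp4 (ENSMUSG00000023991, chromosome 17, 47867133 to 47924645) had 3157 counts in KO1 and 6567 in KO2, or 39.4 and 82.8 TPM. It ranked 4 in the family in KO1 and 1 in KO2. Foxp1 (ENSMUSG00000030067, chromosome 6, 98925338 to 99522721) had 4091 and 3998 counts, or 18.3 and 18.1 TPM. ES cells are known to splice a form of Foxp1 of their own, which counts per gene cannot separate from the others. Foxp2, known from speech and brain development, had 6 and 3 counts, and Foxp3, the factor of regulatory T cells, 4 and 9. Foxp4 made up 68.2% of the FOXP level in KO1 and 82.0% in KO2. Of 12 listed FOXP partners 11 were detected, from Chd4 and Hdac1 of the NuRD complex at 322 and 258 TPM to Satb1 at 3.28 TPM, while the neuronal factor Tbr1 had 14 and 8 counts.

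FOXN was led by Foxn2 with 7573 counts in KO1 and 5853 in KO2, more reads than any other member in KO1. It lies on chromosome 17 from 88440711 to 88490533 (ENSMUSG00000034998) and was at 63.2 and 49.4 TPM, rank 1 in KO1 and rank 4 in KO2. Foxn3, a checkpoint suppressor gene, had 2093 and 1922 counts, or 11.2 and 10.4 TPM. Foxn4, known from retina and spinal cord interneurons, was low with 214 and 336 counts, or 3.90 and 6.19 TPM. Foxn1, the factor of thymic epithelium and hair, had 3 and 4 counts. The 4 FOXN genes thus ran from 7573 reads to 4 or fewer in a library.

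FOXK comprised 2 detected genes. Foxk2 (chromosome 11, 121259990 to 121309896) had 3203 and 3366 counts, or 37.4 and 39.8 TPM. Foxk1 (chromosome 5, 142401497 to 142462011) had 1498 and 2223 counts, or 12.1 and 18.2 TPM. Foxk2 was higher in both libraries and took 72.1% ± 4.89 of the FOXK level (SD, n = 2). Both proteins bind the SIN3A repressor and the BAP1 deubiquitinase complex, and the 11 of 12 listed partners whose symbols matched the table were all detected. Sds3 is an older symbol and was not matched. Hdac1 and Sap30 were highest at 258 and 182 TPM, and Mbd6 and Mbd5 lowest at 18.3 and 2.83 TPM.

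Foxm1, the mitotic member, lies on chromosome 6 from 128362967 to 128376146 (ENSMUSG00000001517). It had 3091 counts in KO1 and 3627 in KO2, or 33.0 and 39.2 TPM. All 16 listed FOXM1 target genes were detected at a median of 212 TPM, from Cdc20 and Ccnb1, which control the exit from and the entry into mitosis, at 525 and 435 TPM to the phosphatase genes Cdc25b and Cdc25c at 32.2 and 19.6 TPM. The 12 listed partners, which include subunits of the MuvB complex and share a gene with the targets, were also all detected. Mybl2 was highest at 400 TPM and Ccna2 next at 274 TPM, with Lin52 and Lin9 lowest at 19.2 and 15.7 TPM. In TPM, Foxm1 lay above Cdc25b and Cdc25c in both libraries and below the other 14 listed targets.

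Foxd3 was the only FOXD gene detected, and the highest of the family's genes with 1 exon. It lies on chromosome 4 from 99656299 to 99658622 on the plus strand (ENSMUSG00000067261). Its counts were 1142 in KO1 and 1404 in KO2, or 30.2 and 37.5 TPM, rank 7 of the family in both libraries. The other FOXD genes were near the floor. Foxd1, a factor of kidney stroma, had 11 and 9 counts, Foxd4 had 0 and 3, and Foxd2 had 0 and 1. Foxd3 thus held 99.6% of the FOXD level in KO1 and 99.4% in KO2. The 12 pluripotency genes listed beside Foxd3 were all detected at a median of 306 TPM, and most of them are also among the ES cell markers above. Pou5f1 and Zfp42 led at 1490 and 1316 TPM, and Tle4, a corepressor gene, and Prdm14 were lowest at 131 and 29.6 TPM. Foxd3 at 33.9 ± 5.20 TPM (SD, n = 2) overlapped Prdm14, which was at 31.1 TPM in KO1 and 28.0 TPM in KO2, and lay below the other 11.

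In FOXJ, the widely expressed Foxj3 (chromosome 4, 119537004 to 119629119) led with 3447 and 2811 counts, or 19.3 and 15.9 TPM. Foxj2 had 340 and 375 counts, or 3.91 and 4.36 TPM. Foxj1, the master regulator of motile cilia, was below the threshold with 52 and 94 counts (0.915 and 1.72 CPM). Of 17 listed genes of motile cilia 13 were detected, against 55.3% of all protein-coding genes. The list median was 2.89 TPM, beside 2.39 TPM for all protein-coding genes. Detection by CPM does not allow for gene length. Rfx2, a regulator of cilia genes, and Tekt1, of the axoneme, were highest at 17.7 and 14.1 TPM. The dynein gene Dnah9 had 1 count in each library and Mcidas, which acts upstream of Foxj1, had 0 in both.

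Some members known from narrow tissues were detected at low levels. Foxi3, a factor of placodes and of teeth and hair, had 123 and 157 counts, or 5.90 and 7.62 TPM. Its relatives Foxi2 and Foxi1 had 2 and 1 counts and 0 in both. Foxr1 had 208 counts in each library (5.58 and 5.64 TPM) and Foxr2, on chromosome X, had 170 and 114 (3.25 and 2.20 TPM). Foxq1, known from hair and the stomach lining, had 251 and 301 counts, or 3.18 and 3.86 TPM. The gene A530084C06Rik lies under 66.1% of the Foxq1 exon on the opposite strand and had 3 and 1 counts. The libraries are labelled as reverse-stranded, but how the counting treated strand is not stated.

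Endoderm and mesoderm members were low. In FOXA, the pioneer factors of endoderm and liver, Foxa3 had 50 and 74 counts, Foxa2 39 and 58, and Foxa1 10 and 15. The first 2 passed 1 CPM in KO2 only, with Foxa3 at 0.880 and 1.35 CPM and Foxa2 at 0.686 and 1.06 CPM. Of 15 listed endoderm genes 8 were detected, near the 55.3% of all protein-coding genes. Dab2 and Hnf4a were highest at 26.3 and 12.1 TPM, with Cer1 at 1 count in all and Afp at 0. Most of the detected genes, Dab2 included, are also among the primitive endoderm markers above.

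Mesodermal FOXC and FOXF genes lie in 2 clusters with other members, and most reads there came from Foxq1. On chromosome 8, Foxf1, Foxc2 and Foxl1 span 46.3 kb from 121084386 to 121130644 and had 2 and 4, 7 and 6, and 1 and 0 counts. Mthfsd, a gene between Foxf1 and Foxc2, had 477 and 607 counts, or 3.17 TPM. Across the 256 kb cluster of chromosome 13, Foxf2 had 16 and 17 counts and Foxc1 2 and 0, whereas Foxq1 was detected and Gmds, 7.10 kb beyond Foxc1, had 365 and 352 counts. A further pair, Foxd2 and Foxe3, lies within 19.7 kb on chromosome 4 with 1 count in all, and Cmpk1, 33.3 kb away, was at 92.8 TPM. Of 15 listed mesoderm genes 5 were detected, against 55.3% of all protein-coding genes. Bmp4 at 130 TPM and Tek at 7.55 TPM led them, with Msgn1 and Pax3 at 0.

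The lowest members were at the limit of what this depth resolves. Foxb2, Foxe3 and Foxi1, 3 of 42 members, had 0 counts in both libraries, against 19.6% of all protein-coding genes. Foxd4, Foxe1, Foxd2, Foxb1, Foxl1 and Foxc1 had reads in 1 library only, at most 3. Foxs1 had 2 counts in each, Foxl2, of the ovary, 2 and 3. The 20 members ranked from 23 to 42 had at most 17 counts in a library and together 0.311% of the family level in KO1 and 0.352% in KO2. Just outside the threshold stood Foxa3, Foxo6, Foxj1 and Foxa2, at means from 1.27 to 1.88 TPM, and just inside it Foxr2 at 2.73 TPM and Foxq1 at 3.52 TPM.

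Noncoding genes beside the members were mostly below the threshold, as were the entries of the whole table that are not protein-coding. Of 30 annotated noncoding genes that overlap a member or start within 5 kb of its start, 1 was detected and 12 had 0 counts in both libraries. Of all 55421 entries 13347 were detected, and 12148 of those were among the 21976 protein-coding genes. With 0 counts in both libraries there were 25803 entries, of which 4313 were protein-coding. The detected one was Gm12688, which starts 1.32 kb from the start of Foxd3 on the opposite strand, with 223 and 238 counts (3.93 and 4.36 CPM). Fendrr, a long noncoding RNA gene divergent from Foxf1, had 2 and 0 counts, Foxd2os 1 and 5, Foxl2os 4 and 2, and Foxo6os 1 in each. Flicr, which overlaps Foxp3, had 23 and 14. Annotated microRNA genes within members had 0 counts, which says nothing of mature microRNAs in polyadenylated RNA.

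Detection went with exon number. Of 13 members with 1 exon 2 were detected, Foxd3 and Foxq1, against 32.7% of all protein-coding genes with 1 exon. Members with more than 1 exon were detected in 16 of 29 cases, against 57.4%. With 2 or 3 exons it was 3 of 13, Foxo4, Foxo1 and Foxi3, against 33.8%. With 4 or more exons it was 13 of 16, against 64.6%. The exceptions among the last were Foxn1, Foxp3 and Foxp2, the last with as many exons, 19, as Foxp1. Median exonic length was 2705 bases for members with 1 exon, 2615 with 2 or 3 and 5550 with 4 or more. Detected members had a median of 5302 bases and the others 2640. Exon number and length were not separated, and detection by CPM does not allow for length. Genes with 1 exon made up 31.0% of the family and 8.71% of all protein-coding genes. The members also had a higher GC content of the longest transcript, with a median of 55.7% beside 48.7%, and those with 1 exon a median of 61.4%.

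**Figure D3:**
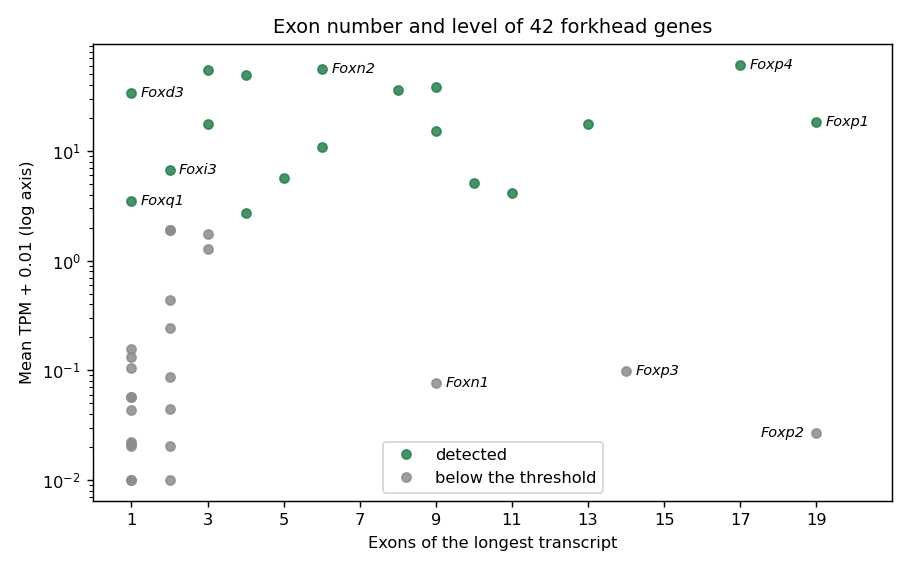
Mean TPM + 0.01 (log axis) of the 42 forkhead genes against the number of exons in the longest transcript, with detected members in green and the others in grey. Of the 13 genes with 1 exon only Foxd3 and Foxq1 are green, and of the 16 with 4 or more exons only Foxn1, Foxp3 and Foxp2 are grey.

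Ranking the 18 detected genes by mean level gave 17 neighbouring pairs, of which 7 had library ranges that did not overlap. Foxp4 at 61.1 ± 30.7 TPM, Foxn2 at 56.3 ± 9.76 TPM and Foxo4 at 54.8 ± 3.15 TPM (SD, n = 2) could not be put in order. The widest step lay between Foxd3 at 33.9 TPM and Foxp1 at 18.2 TPM, 1.86-fold. Foxp1, Foxj3, Foxo1 and Foxk1, from 18.2 to 15.2 TPM, overlapped as neighbours. Foxp4 lay above 87.1% of protein-coding genes and Foxr2 above 51.0%. Levels depend on the length used, for a gene of unchanged length through the scaling of TPM to a fixed sum. With the longest transcript in place of all exons, Foxj3 was at 30.3 TPM in place of 17.6 TPM and Foxp1 at 26.2 TPM, while Foxd3, whose length is the same in both, was at 25.4 TPM, so that Foxj3 and Foxp1 then stood above Foxd3.

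Between the duplicates, 1 member differed by more than 2-fold with its whole 95% counting interval, among the 22 members with a summed count of at least 50. This was Foxp4, 2.16-fold higher in KO2 (interval 2.07 to 2.26). Over all genes 0.98% were higher and 0.0768% lower by this rule, which compares 2 libraries and not conditions. With DESeq2 size factors in place of the trimmed mean of M values (TMM), Foxp4 was 2.08-fold higher (1.99 to 2.17) and no member passed. With such factors from genes that averaged 50 counts or more, a setting chosen after seeing the data, it was 2.15-fold higher (2.06 to 2.24) and passed. With the weaker condition that the interval exclude equal levels, 13 of the 22 were higher in KO2 and 4 lower, beside 34.3% and 31.2% of all genes. The median log2 ratio of KO2 over KO1 was 0.20 over the 25 members that averaged 10 counts or more, and 0.01 over all such genes.

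The ratio went with GC content in the family as in the table. Across the 25 members, genes of 2 shared libraries and not independent replicates, the Spearman correlation of GC content and log2 ratio was 0.837, and over 18092 genes it was 0.743. Foxn2, with the lowest GC content of the members at 41.2%, had a log2 ratio of -0.32 (interval -0.36 to -0.27), and Foxp4, at 63.4%, one of 1.11 (1.05 to 1.17). After subtraction of a loess fit on GC content, Foxn2 was at 0.01 (-0.04 to 0.06) and Foxp4 at 0.06 (0.00 to 0.12), and no member differed by 2-fold, beside 0.167% higher and 0.103% lower of all genes. Foxd3 fell on the other side of equal levels after the correction. At a GC content of 65.1% its uncorrected log2 ratio was 0.35 (0.24 to 0.47) and its corrected one -0.83 (-0.94 to -0.71). Foxi3, at 63.1%, went from 0.41 (0.06 to 0.76) to -0.63 (-0.97 to -0.27). Foxo3 was at 0.04 (-0.01 to 0.09) before and -0.19 (-0.24 to -0.14) after the correction. With it, 4 of the 22 members had an interval above equal levels and 7 below, beside 19.8% and 20.4% of all genes. The direction of difference for Foxd3, Foxi3 and others therefore depends on the correction. For Foxo3 the interval included equal levels before it and lay below them after it.

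**Figure D4:**
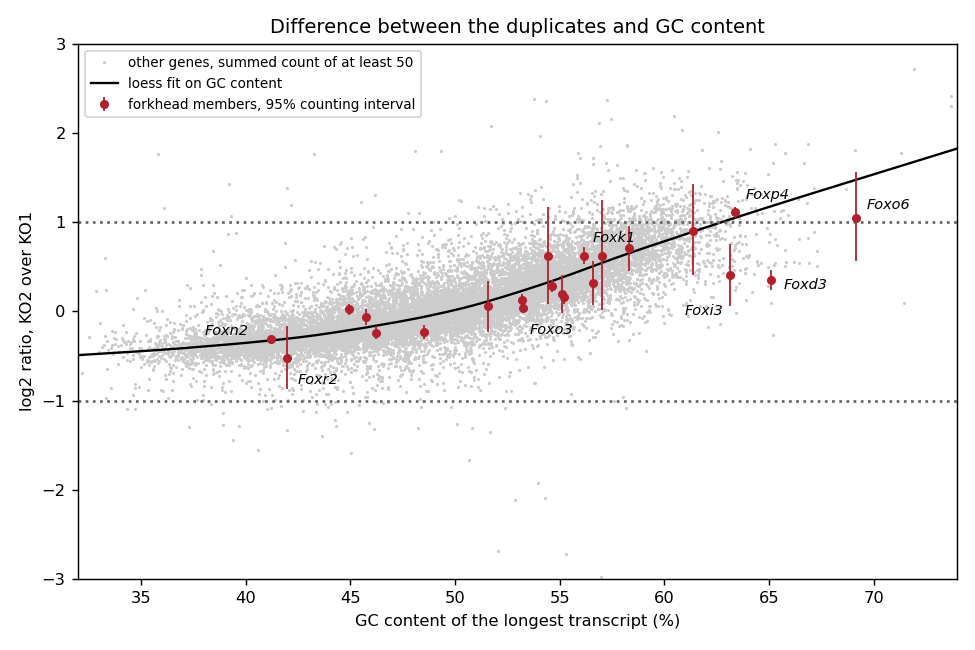
Log2 ratio of KO2 over KO1 against the GC content of the longest transcript (%) for 22 forkhead members (red, bars show the 95% counting interval) and other genes whose counts sum to 50 or more (grey, those beyond the axis limits not drawn), with the loess fit as a line and dotted lines at 2-fold. Foxp4 and Foxn2 sit on the line at 1.11 and -0.32, and Foxd3 lies below it at 0.35.

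**Figure D5:**
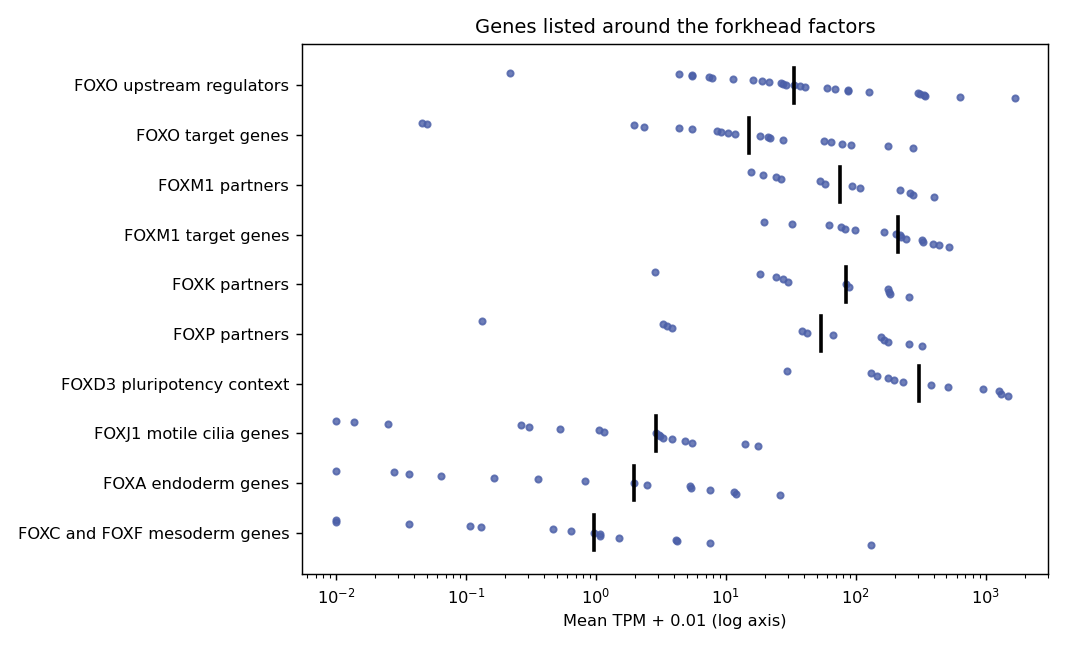
Mean TPM + 0.01 (log axis) of the genes in each list written around a forkhead factor, with a black bar at the median. The medians run from 306 TPM for the pluripotency genes beside Foxd3 and 212 TPM for FOXM1 targets down to 1.94 TPM for endoderm and 0.960 TPM for mesoderm genes.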

How the data were processed

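Polyadenylated RNA of 2 Ago1 KO ES cell samples was sequenced. The authors deposited whole-number read counts per Ensembl gene, not normalized. The submitters' processing notes name the build GRCm38. The sources used here do not give the aligner, the counter or its strand setting. Of 55421 identifiers 55240 were found in GENCODE release M21, and the other 181 held 0.00416% of the counts. CPM used TMM factors (0.996 and 1.00) of edgeR 4.0.16 in R 4.3.3, and TPM used the union exonic length, on which TMM has no bearing. With 1 group no test of a condition was possible, and levels are mean ± SD over 2 libraries.

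Library ratios had exact conditional binomial 95% intervals, and 0.5 was added to each count for the log2 value. The GC fit was a loess of span 0.3 over genes that averaged 50 counts or more. The ratio step was tested on simulated data with counting error only and no trend with GC content. The length step was tested on counts made with the same lengths, which checks the arithmetic only. DESeq2 1.42.0 size factors, library size without TMM, other thresholds and each library alone were alternatives. Other tools were matplotlib 3.10.9, bedtools 2.31.1, pandas 2.3.3, scipy 1.17.1, numpy 2.4.6 and python 3.11.15. Members and lists were chosen with earlier results of these data known. Every member could be named, and of each other list the 2 highest and 2 lowest genes. Of noncoding neighbours the detected one was named. Noncoding, marker and flanking genes named beyond these were chosen after their values were seen. Results on 2 genes whose symbols fit the pattern are not reported here.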

Additional observations from a re-analysis of the deposited data

How the results depend on the processing

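No paired analysis was possible because KO1 and KO2 form a single group. The median level of the 18 detected members, 17.6 TPM, was 19.3 TPM with the longest transcript as length, and 17.0 to 18.8 TPM with each library alone. Library size or DESeq2 size factors cannot change TPM. The 18 detected members were 18 to 22 with each library alone or another threshold, and 33 with any read in both libraries, which follows from dropping the threshold. The summed level of 446 TPM was 416 TPM with the longest transcript. The count of 1 member differing between the libraries, Foxp4, was 0 with the GC correction and 0 with DESeq2 size factors, which both came out as 1 and left its fold at 2.08. It stayed at 1 with a limit of 1.5-fold, with no count minimum, without TMM, and with DESeq2 factors from genes averaging 50 counts or more, added after seeing the data. The median log2 ratio of 0.20 became -0.077 with the GC correction and kept its sign otherwise, from 0.14 to 0.29. With the longest transcript, 3 detected members moved higher and 9 lower by more than 1 SD. TPM is scaled to a fixed sum, so members of unchanged length moved too, Foxd3 and Foxq1 to 0.751-fold. FOXJ held 5.30% of the family, or 8.41% with the longest transcript and 8.13% without length scaling, and FOXD 7.61%, or 6.14% and 2.92%. A single library of a pair always falls within 1 SD of the mean of both, so values from each library alone do not show stability.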
